A study of Hydra viridissima with 2 samples.

Results

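Near one end of scaffold 5 of the green hydra genome, 5 kinds of short single-exon gene model followed each other in a fixed order, over and over. Their coding lengths were 130, 135, 104, 137 and 192 codons, counting any stop codon (1 codon is 3 bases), and the models are called by these lengths here. The repeat was defined by those lengths alone: every gene model of scaffold 5 with 1 uninterrupted interval and 1 of these 5 lengths was taken, whatever its counts. This gave 600 models of 34573 in the annotation, and 21.9% of the 2746 models of scaffold 5. By length they were 138 models of 137 codons, 133 of 135 codons, 118 of 104 codons, 108 of 130 codons and 103 of 192 codons. Length is a loose criterion, so models elsewhere on the scaffold that happen to have such a length were taken too. They are given separately as the models outside the arrays.

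The counts came from whole polyps of Hydra viridissima, clone 2, a freshwater cnidarian that carries green algae in its gut lining. There was 1 library from aposymbiotic polyps, which lack the algae, and 1 from green, symbiotic polyps. Both cultures were kept at 24 °C, and about 200 large animals were pooled for each library 2 to 3 days after feeding. The aposymbiotic library held 5533508 counted read pairs and the symbiotic library 6905650; there were no replicates, so each difference is one between these 2 libraries and has no test.

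Genes in tandem arrays lie one after another in many near-identical copies, and ribosomal RNA genes and histone genes are the textbook cases in animals. In many animals the different histone genes lie together in a repeated cluster, with neighbours on opposite strands. Such copies matter for sequencing because a short read from one of them can align equally well to many places. The count table pairs no identifier with a gene name, so no gene name is given to the models described here, and lengths stand in for names.

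Read in 1 direction, the order of the unit was 130, 135, 104, 137 and 192 codons, then a long spacer, then the 130-codon model of the next unit. Neighbouring models lay on opposite strands within the unit. In what is called forward reading here, the 130-, 104- and 192-codon models were on the minus strand and the 135- and 137-codon models on the plus strand; in reverse reading every strand was the opposite. The 130- and 135-codon models therefore pointed away from each other, as did the 104- and 137-codon models, while the 135- and 104-codon models pointed towards each other, as did the 137- and 192-codon models. Across the spacer, the 192- and 130-codon models read the same way. Apart from 2 turns in the third array, no model broke this strand pattern.

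**Figure D1:**
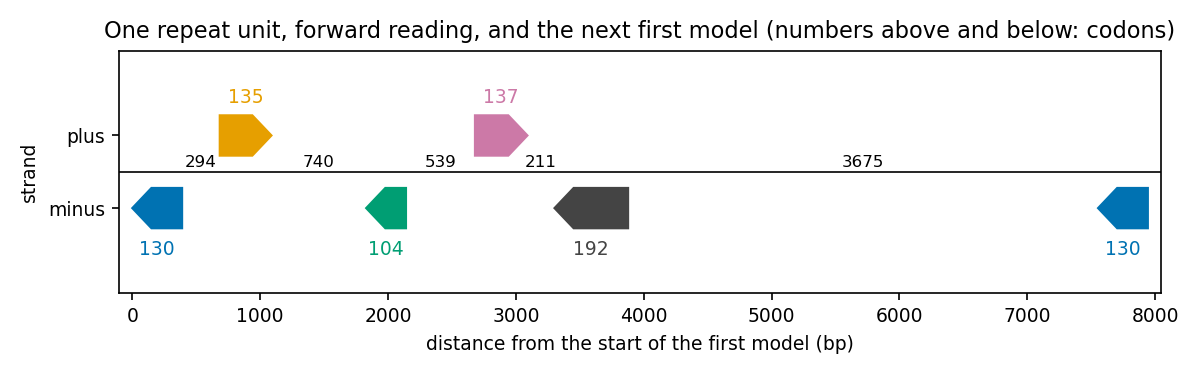
Map of 1 repeat unit in forward reading, drawn to scale in bp from the start of the 130-codon model; arrows above the line are plus-strand models, arrows below it minus-strand models, coloured numbers are lengths in codons, and numbers on the line are the most frequent gaps in bp (for the last one, the median spacer). The 4 inner gaps of 294, 740, 539 and 211 bp are short beside the spacer of 3675 bp.

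A complete unit in the first array shows the layout with coordinates, which are those of the deposited table (build not given in the sources used here). The 130-codon model lay at scaffold_5:272239-272628 on the minus strand, and the 135-codon model followed at scaffold_5:272923-273327 on the plus strand. The 104-codon model lay at scaffold_5:274061-274372 (minus), the 137-codon model at scaffold_5:274912-275322 (plus) and the 192-codon model at scaffold_5:275534-276109 (minus). A spacer of 3299 bp then led to the next 130-codon model, at scaffold_5:279409-279798. In the second array the same order ran the other way along the scaffold. There a 130-codon model at scaffold_5:728677-729066 was on the plus strand, with its 135-codon neighbour at scaffold_5:727978-728382 on the minus strand, its 104-codon model at scaffold_5:726926-727237 (plus) and its 137-codon model at scaffold_5:725976-726386 (minus).

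Gaps between neighbours, given as the bases strictly between 2 models, were almost constant inside the unit. Between the 130- and 135-codon models the gap was 294 bp in 93 of 100 cases and 293 bp in the other 7. Between the 104- and 137-codon models it was 539 bp in 99 of 104 cases, with a range of 535 to 540 bp. Between the 137- and 192-codon models it was 211 bp in 97 of 98 cases and 209 bp in the remaining one. These 3 gaps thus differed by at most 5 bp over 3 arrays that lie far apart.

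The gap between the 135- and 104-codon models was the one that set the first array apart from the second and from most of the third. It was 740 bp in 75 of 107 cases and 733 bp in 27. In the first array it was 733 bp in 26 cases and 732 bp in 1, and 740 bp in 2, both near its right end, after the 135-codon models that start at 440857 and 449502. In the second array it was 740 bp in 34 cases and 746 bp in 1. In the third array it was 740 bp in 39 cases, 736 bp in 2, 733 bp in 1 and 760 bp in 1. The first array and the other two therefore differed by 7 bp in their usual value, although 740 bp also occurred in the first array and 733 bp in the third.

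Where all 5 models followed each other without a break, 90 blocks from the 130- to the 192-codon model could be measured. They fell into 8 combinations of the 4 inner gaps, and the block length ran only from 3867 to 3884 bp. The most frequent block, of 3878 bp, occurred 61 times and in all 3 arrays (2, 30 and 29 times). The block of 3871 bp occurred 17 times, all of them in the first array. These 2 forms made up 86.7% of the blocks, and in the more frequent one 2094 bp, or 54.0%, were coding.

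The spacer, in contrast, varied. Over 93 spacers between a 192-codon model and the 130-codon model that follows it, the median was 3675 bp, the quartiles 3393 and 4378 bp and the range 3207 to 8338 bp. There were 80 distinct lengths, of which 71 occurred once. The median was 3309 bp in the first array (24 spacers, 3255 to 4767 bp), 3609 bp in the second (33 spacers, 3285 to 4913 bp) and 4407 bp in the third (36 spacers, 3207 to 8338 bp). The range of the third array took in those of the other 2, which overlapped each other over most of their extent. Of the 93 lengths 86 were odd numbers of bp and 7 even, a split seen in each array (22 to 2, 31 to 2 and 33 to 3).

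Spacer lengths also changed along the arrays. In the third array, a stretch of 14 measured spacers ran from the 192-codon model at 1570288 to the one at 1447740. It passed over places where a model beside the spacer was omitted and no spacer was measured. Of these, 11 lay between 4355 and 4427 bp, and the other 3 were 4637, 5675 and 4747 bp. The 2 longest spacers, of 8338 and 8324 bp, were neighbours, after the 192-codon models at 1604092 and 1591878. Between measured spacers that followed each other in a segment, the median difference was 224 bp over 89 pairs, beside 260 bp over all 1191 pairs of the same segment. Some of the 89 pairs have repeats without a measured spacer between them.

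**Figure D2:**
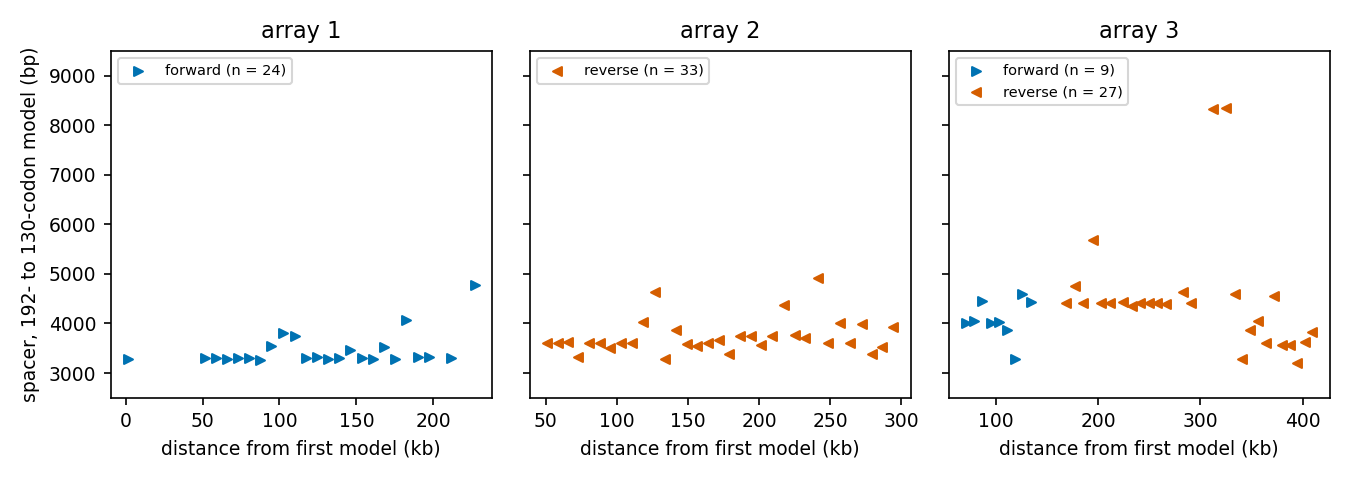
Length of each spacer between a 192-codon and the next 130-codon model, in bp, against the distance of the 192-codon model from the first model of its array, in kb; triangles point in the direction of reading. Many values lie near the median of 3309 bp in the first array and between 4355 and 4427 bp in the middle of the third, which also holds the 2 highest values, of 8324 and 8338 bp.

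The same short series of spacers turned up in separate places. In reading order, spacers of 3869, 3285 and 4639 bp followed each other in the second array. In the forward segment of the third array the series was 3869, 3285 and 4597 bp, and in its right reverse segment 3869, 3285 and 4595 bp. In the third array the agreement reached 1 spacer further back, with 4033 and 4043 bp. All 3 spacers of 3869 bp led to a unit whose 130- and 135-codon models were 293 bp apart, where 294 bp was usual, and so did both spacers above 8 kb. This series was looked for after the spacers had been seen, with a tolerance of 50 bp per spacer, and is given as a description.

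The models formed 3 arrays, taking as an array a run of at least 5 of them with neighbouring starts no more than 15 kb apart. The arrays held 560 of the 600 models, or 93.3%, and lay between positions 216643 and 1722238, whereas the last model of the scaffold ends at 20175399. Their summed span was 1011 kb, of which 232.5 kb were coding sequence of the repeat. They held 20.4% of all gene models of scaffold 5.

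The first array, at scaffold_5:216643-457428, spanned 240.8 kb and held 145 models: 26 of 130 codons, 32 of 135 codons, 31 of 104 codons, 29 of 137 codons and 27 of 192 codons. All of them read forward. It began with a 104-codon model at scaffold_5:216643-216954 and ended with another at scaffold_5:457117-457428, both on the minus strand. The second array, at scaffold_5:598480-925354, spanned 326.9 kb with 186 models (34, 40, 38, 41 and 33 in the order of the unit), and all of them read in reverse. It likewise began and ended with a 104-codon model, at scaffold_5:598480-598791 and scaffold_5:925043-925354, both on the plus strand.

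The third array, at scaffold_5:1279214-1722238, was the longest at 443.0 kb, with 229 models (41, 52, 45, 51 and 40). It began and ended with a 130-codon model on the plus strand, at scaffold_5:1279214-1279603 and scaffold_5:1721849-1722238. It was the array in which the direction turned. A reverse segment of 17 models (scaffold_5:1279214-1343514) was followed by a forward segment of 52 (scaffold_5:1348773-1437064) and by a reverse segment of 160 (scaffold_5:1439451-1722238). At the first turn, 5258 bp separated a 135-codon from a 104-codon model, both on the minus strand. At the second turn, 2386 bp separated a 104-codon model on the minus strand from a 192-codon model on the plus strand.

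**Figure D3:**
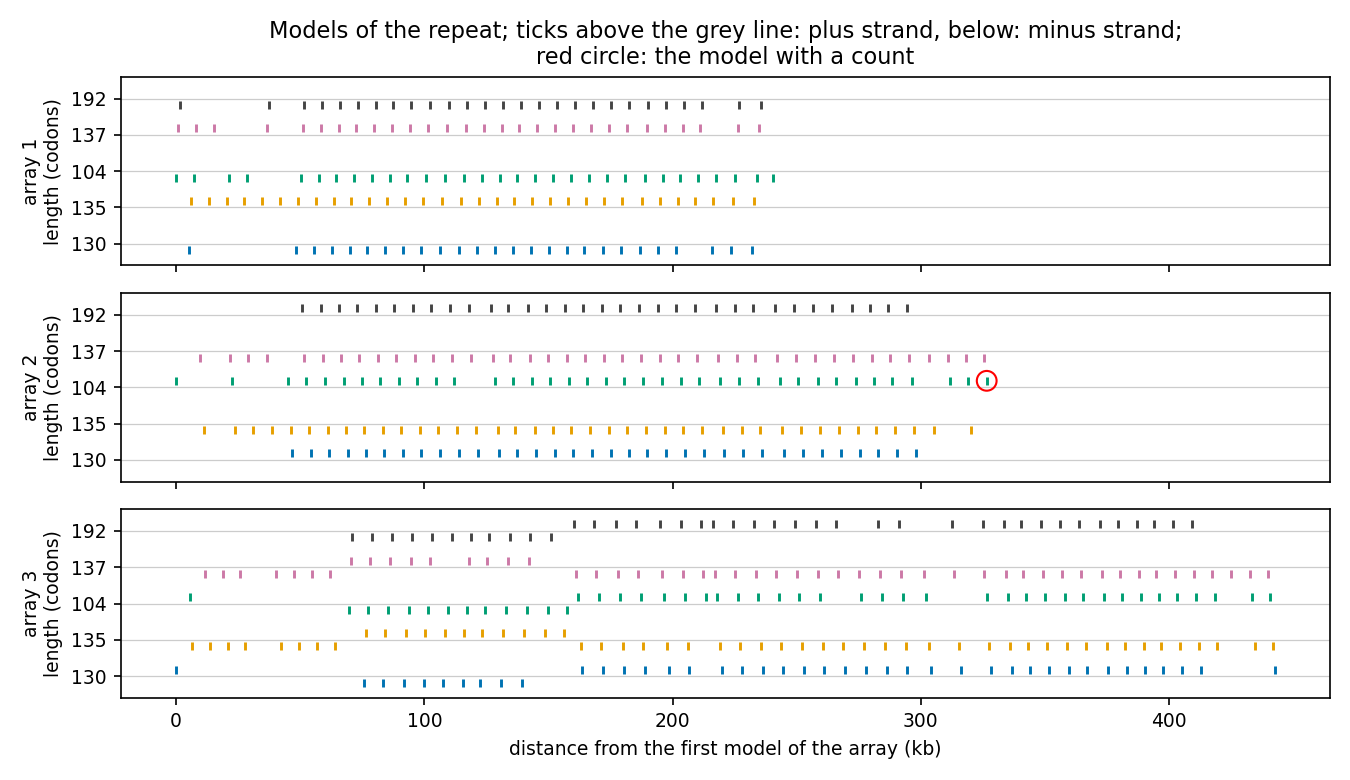
Position of the 560 models of the 3 arrays, in kb from the first model of each array, with 1 row per coding length in codons; ticks above a grey line are on the plus strand and ticks below it on the minus strand. The first array reads one way, the second the other way and the third turns at 2 places, and the single red circle marks the model with a count, at the right end of the second array.

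The surroundings of the first and second arrays mirrored each other. To the right of the first array came models of 252, 699, 585 and 903 nt on the plus, plus, plus and minus strands, at 5242, 5584, 6637 and 12342 bp. To the left of the second array, going outwards, came models of the same 4 lengths on the opposite strands, at 5247, 5589, 6642 and 12302 bp. The fifth and sixth neighbours had different lengths on the 2 sides. These facing ends were 141.1 kb apart, and the arrays themselves read in opposite directions. On the outer sides, the nearest other model was 9345 bp away in both cases. To the left of the first array it was a model of 31 intervals and 3606 nt (scaffold_5:182622-207297, plus), with 94 aposymbiotic and 103 symbiotic counts. To the right of the second array it was a model of 12 intervals and 2013 nt (scaffold_5:934700-940922, minus), with 20 and 29 counts. Those outer models thus differed in structure although their distances were equal.

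The third array stood apart from the second by 353.9 kb. Its nearest left neighbour was a single-interval model of 990 nt at scaffold_5:1221965-1222954, 56259 bp away, with 19 and 22 counts. Its nearest right neighbour was a model of 21 intervals and 3597 nt at scaffold_5:1729879-1747109, 7640 bp away, with 212 and 241 counts. The nearest other model thus had counts on 4 of the 6 sides of the arrays. On the facing ends of the first and second arrays, the model of 252 nt had 0 counts in both libraries.

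Counting a unit from 1 model of 192 codons to the next, the arrays held 105 units. Counted this way, a unit begins with the last model of the order given above. In 85 of them all 5 lengths were present once, in order and on the right strands, and these held 425 models. The median distance from the start of 1 model of 192 codons to the start of the next was 7621 bp (quartiles 7334 and 8289, range 4667 to 35786, 97 distances). Within complete units it was 7499 bp, from 7085 to 9553 bp. The first array had 22 complete units of 28, 21 of them in a row between positions 268365 and 421073. The second had 31 of 34, in a row of 9 and, after 1 incomplete unit, a row of 22 between positions 725976 and 893634. The third had 32 of 43, and its longest row was 11, between positions 1604879 and 1689056.

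The 20 incomplete units held 135 models, and 9 of them lay at the ends of the arrays. Before its first complete unit, the first array had 3 incomplete ones, the second 1 and the third 2; after the last complete unit each had 1. Several were long stretches in which the 192-codon model, from which units are counted, was not annotated, so the count of incomplete units understates how many repeats they cover. The left reverse segment of the third array held the most models of any incomplete unit. It had no complete unit, and 135- and 137-codon models alternated in it for 15 of its 17 models. Inside the arrays, single gaps split otherwise regular rows, as in the second array, where the unit at scaffold_5:717460-725764 held 4 of the 5 models and no 104-codon model.

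Of 555 steps from 1 model to the next within a segment, 502, or 90.5%, led to the next length in the order. The other 53 steps passed over at least 88 places in the order: 29 for the 192-codon model, 28 for the 130-codon model, 18 for 104 codons, 8 for 137 codons and 5 for 135 codons. The most frequent omissions were the 104-codon model alone and the 192- and 130-codon models together, 16 times each. Where the omission did not touch the spacer, the space was still there. In all 18 such cases (16 for 104 codons and 2 for 137 codons) the distance between the flanking models was within 30 bp of what the omitted model and its 2 usual gaps would fill, with differences of -12 to 16 bp. Whether those places hold the coding sequence was not examined, since no genome sequence was used here. Of the omissions that crossed the spacer, the 2 of the 130- and 135-codon models together left only 789 and 2592 bp for it. This is less than the shortest spacer measured, of 3207 bp, so the full room was not there. The other omissions across the spacer left at least 3265 bp.

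Some of the places passed over were covered by a model of another structure. Another model on the expected strand overlapped 22 of the 88 places: 20 of the 29 for the 192-codon model, 2 of the 28 for the 130-codon model and 0 of the others. In 18 of these it shared at least 1 boundary with the expected model within 10 bp, and in 6 both. In all, 17 models that are no members lay inside the arrays, and 12 of them had more than 1 interval. Of these 12, 10 joined stretches of different units: they spanned 7728 to 58058 bp and passed over the models in between. In 3 of them the intervals added up to 192 codons, at scaffold_5:607136-642313, scaffold_5:1282903-1290631 and scaffold_5:1695937-1711453. None of the 17 had a count.

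Next came the question of which copies held counts. In the whole annotation 71.6% of models had at least 1 count in either library. In the arrays 1 of 560 models had one, or 0.179%. It was the 104-codon model at scaffold_5:925043-925354, the last model of the second array, with 0 counts for aposymbiotic and 1 for symbiotic polyps. The other 559 models, among them all models of the 85 complete units, had 0 in both. By length, 0 of 101 models of 130 codons, 0 of 124 of 135 codons, 1 of 114 of 104 codons, 0 of 121 of 137 codons and 0 of 100 of 192 codons had a count.

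In sum, 232.5 kb of coding sequence in the arrays took 0 of the 5533508 aposymbiotic pairs counted and 1 of the 6905650 symbiotic ones. A count of 0 allows up to 3 counts, or 0.542 CPM (counts relative to a fixed library total) for all array models together in the aposymbiotic library. This limit covers only pairs that could be counted, those with 1 alignment and within 1 model, and is no limit on transcription. Taking the first and last unit of each array as its edges, 1 of 63 edge models had a count (1.59%, exact Clopper-Pearson 95% interval 0.0402 to 8.53) and 0 of 497 inner ones (0 to 0.739). These intervals treat the models as independent, although they are copies of a repeat and not replicates. The edge units also held from 2 to 17 models each. A single count therefore does not separate edges from interior.

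Other models of the scaffold were counted far more often. Of the single-interval models of scaffold 5 with other lengths, 799 of 1117 (71.5%) had a count, and of those between 300 and 600 nt 264 of 398 (66.3%). Single-interval models with the same 5 lengths on other scaffolds had a count in 256 of 637 cases (40.2%). These 637 include 113 models of a similar arrangement on scaffold 13, described below, none of which had a count. Between the first and the second array 15 of 37 models had a count, and between the second and the third 28 of 35.

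Per the header of the count table, pairs that aligned to several places, and pairs that overlapped several models, were not counted. Where copies are near-identical, a 0 is therefore not a measure of transcription, and low transcription and uncounted reads cannot be told apart from this table. How alike the copies are in sequence was not tested.

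**Figure D4:**
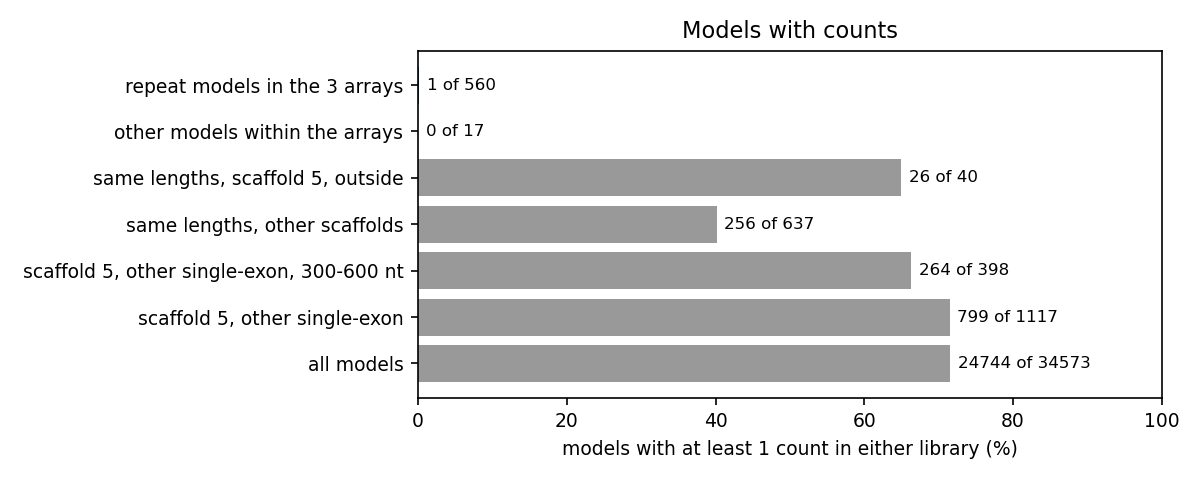
Share of gene models with at least 1 count in either library, in percent, for the repeat and for comparison sets; the number of models with a count and the size of the set stand beside each bar. The repeat has 1 of 560, while the comparison sets outside the arrays lie between 40.2% and 71.6%. The lowest of these, the same lengths on other scaffolds, includes 113 models of scaffold 13 without counts.

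The 40 models outside the arrays had counts about as often as other single-interval models of the scaffold. They lay scattered between positions 108741 and 19820218, and 26 of them (65.0%) had a count, with 106 counts in the library without algae and 131 in that with algae. All but 1 of the 238 counts on the 600 models were thus outside the arrays. The outside models were 17 of 137 codons, 9 of 135 codons, 7 of 130 codons, 4 of 104 codons and 3 of 192 codons, which is not the near-equal mix of the arrays, and no complete unit was among them.

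Most of these counts fell on a few models. The 5 models with at least 10 counts over both libraries held 183 counts, or 76.9%. The largest was a 192-codon model at scaffold_5:12923310-12923885 (plus, cHydvir-v1B3C1_g25595), with 43 aposymbiotic and 69 symbiotic counts, 47.1% of the total. Scaled to library size this was 7.70 and 10.1 CPM, a log2 ratio of symbiotic over aposymbiotic of 0.39 (exact 95% counting interval -0.18 to 0.97). The interval includes equality, so the difference was within counting error.

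A 135-codon model at scaffold_5:3126917-3127321 (minus, cHydvir-v1B3C1_g24462) had 13 and 12 counts, with a log2 ratio of -0.39 (-1.67 to 0.84). A 130-codon model at scaffold_5:3984723-3985112 (minus) had 9 and 9 counts (-0.28, -1.80 to 1.22). A 135-codon model at scaffold_5:5375363-5375767 (plus) had 10 and 6 counts (-0.97, -2.77 to 0.57). Each of these 3 was lower in the symbiotic library after scaling, and each interval spans equality widely. A 137-codon model at scaffold_5:5367973-5368383 (plus), close to the last one, had 4 and 8 counts (0.65, -1.19 to 2.89).

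The other 22 models had under 10 counts. Of all 27 models with a count, 10 were seen in both libraries, 8 in the aposymbiotic library alone (at most 4 counts) and 9 in the symbiotic library alone (at most 5 counts). Being seen in 1 library was thus a matter of a handful of read pairs. The summed log2 ratio of all 600 models was 0.024 (-0.356 to 0.407), and without the 192-codon model of most counts it was -0.29 (-0.819 to 0.235), so its sign was not determined. Of the 16162 models of the table whose CPM averaged at least 1, 0.947% were at least 2-fold higher in the symbiotic library with an interval that excludes equality, and 1.42% at least 2-fold lower. Of the 600 models, 4 met that level, none of them in an array, and 0 were higher and 0 lower by this rule.

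**Figure D5:**
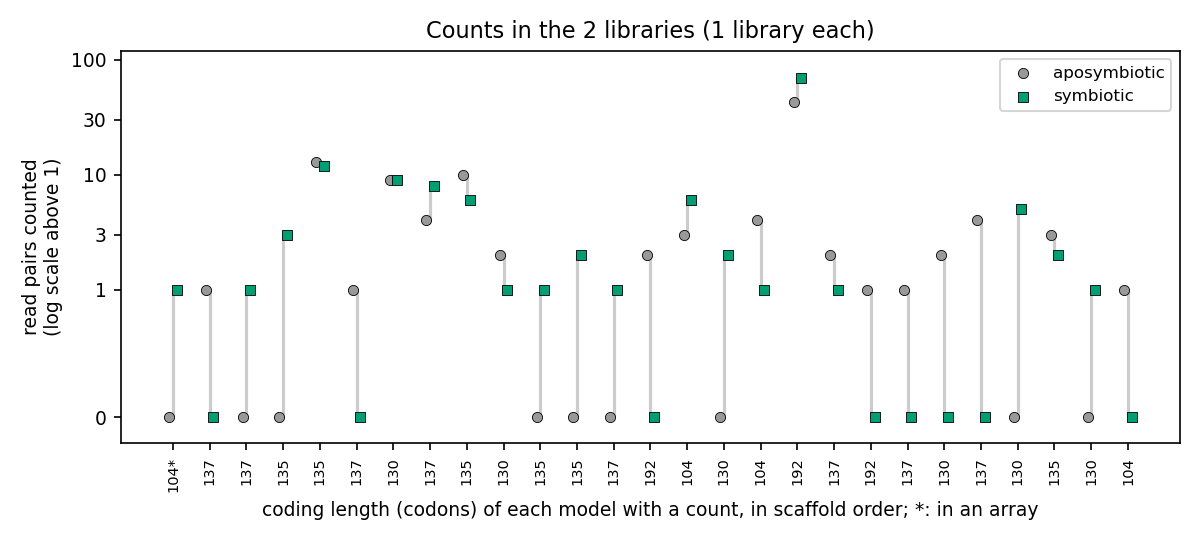
Read pairs counted on each of the 27 models with a count, in scaffold order, for aposymbiotic (grey circles) and symbiotic polyps (green squares), 1 library each; the axis is logarithmic above 1. The 192-codon model with 43 and 69 counts stands above the rest, and the 1 model from an array, marked with an asterisk, has 0 and 1.

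Outside the arrays, 137- and 135-codon models also formed pairs. On scaffold 5 there were 5 pairs of a 137- and a 135-codon model on the same strand, with starts 7161 to 7861 bp apart. Their first starts were 108741, 1040900, 5367973, 8182946 and 9029536. On 12 other scaffolds there were 33 such pairs, 7138 to 7657 bp apart with a median of 7391 bp. In all 5 pairs of scaffold 5 the 137-codon model came first along its strand and the 135-codon model second. In the full repeat, a 192-codon model, the spacer and a 130-codon model lie between a 137-codon model and the next 135-codon model. The 104-codon model lies only on the way from a 135- to a 137-codon model. No 192- or 130-codon model of the length rule lay within the 5 pairs, so none of them was a complete stretch of the repeat. Inside the arrays, the 192- and 130-codon models were likewise omitted together 16 times. Their absence alone therefore does not set the pairs apart from incomplete units. All models of the 5 pairs also had a longer model of a specified length nearby on the same strand. Counting those of the pairs, this held for 12 of the 26 models of 135 or 137 codons outside the arrays. None of the 17 other models inside the arrays had such a length. What these longer models are was not tested. The order within the 33 other pairs is not given here. The pair at 5367973 held 14 of the counts in each library, and the other 4 pairs held 1 aposymbiotic and 4 symbiotic counts in sum.

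The arrangement most like the repeat lay on scaffold 13. Between positions 5668 and 735387 of that scaffold were 47 single-interval models of 130 codons and 66 of 135 codons, and 0 of 104, 137 or 192 codons. By the rule for arrays used on scaffold 5, scaffold 13 held 6 arrays with 111 models in them. The 130- and 135-codon models stood in 46 divergent pairs, as in the repeat of scaffold 5. The gap was 305 bp in 32 of these pairs, 309 bp in 10 and 310 bp in 4, whereas the 100 pairs of scaffold 5 had 293 or 294 bp, so the 2 sets of gaps did not overlap. Starts of neighbouring 135-codon models were a median of 8311 bp apart (2391 to 29244, 65 distances), beside 7487 bp in the arrays of scaffold 5. The distances on scaffold 13 include those between its arrays, which those on scaffold 5 do not. None of the 113 models had a count, while 3 of the 40 other models in the same stretch did. On scaffold 19 there were 3 more such pairs, all with a gap of 309 bp.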

How the data were processed

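Total RNA of pooled whole polyps was depleted of ribosomal RNA enzymatically (Zymo-Seq RiboFree), per the labels' protocols; the labels' molecule field says polyA RNA, and the protocol text was followed. Tools named in the submitters' processing notes are STAR 2.7.11b, Subread 2.1.1, fastp 1.1.0 and deepTools 3.5.6. The authors' deposited table gives read-pair counts by gene model from featureCounts, over the exons of a BRAKER3 annotation, without strand and without pairs of several alignments or several models, per the file headers. Sense and antisense pairs can therefore not be told apart. The build was not given in the sources used here.

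From the table's intervals, order, strand and gaps were derived. Library sizes were TMM-scaled (factors 1.01 and 0.991) over all models in edgeR 4.0.16 under R 4.3.3. Log2 ratios used a prior count of 0.5. Their exact Clopper-Pearson 95% intervals were conditional on the sum of both counts and cover counting error only. With 1 library per condition no test was made. The calculation was checked on simulated data. Models were named by position: the first and last of each array, those with at least 10 counts, array models with a count, and the nearest other model beside each array; identifiers are printed for the 2 with most counts. Other coordinates in the text (an example unit, turns, pairs, mirrored neighbours, spacers) were chosen after their values were seen. The members and lists were chosen with earlier results of these data known. Alternatives changed the distance and size that make an array, the model from which units are counted, the minimum count, the scaling and the prior. Scripts ran in Python 3.11.15 (pandas 2.3.3, numpy 2.4.6, scipy 1.17.1; plots by matplotlib 3.10.9). No sequence was used here.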

Additional observations from a re-analysis of the deposited data

How the results depend on the processing

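Of 36 alternatives, 31 stayed close to the reported value, meaning within 1.5 times for a count, within the quartiles for the period and within the counting interval for a share or ratio. The number of arrays rose from 3 to 5 when neighbouring starts had to lie within 8 kb, and to 5 when 3 models made an array; the models inside arrays then numbered 553 and 566. Complete units numbered 77 to 87 under other starting models, distances and strand rules; the value of 77 comes from reading each array in 1 direction only, which loses the forward segment of the third array. The median period was 7487 to 7627 bp. Models with a count fell from 27 to 9 at 5 or more counts, to 5 at 10 or more, and to 1 inside the arrays. The log2 ratio of the summed counts was -0.29 to 0.0254 beside 0.0241. It was below 0 in 3 of 7 alternatives: -0.0031 with total counts alone, -0.29 without the model of most counts and -0.236 over models under 10 counts. All 7 intervals included 0, so its sign was not determined; inside the arrays alone it was not given, with 0 and 1 counts. No paired analysis was possible because there was 1 library per condition. At this depth, a single model of the arrays with fewer than 3 expected counts could not be told from one with none. Pairs of several alignments were not counted at any depth.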
